A study of Mus musculus with 6 samples.

Results

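Complement is a cascade of plasma and cell-surface proteins that marks cells and particles for removal. Recognition molecules such as collectins and ficolins start the lectin pathway through MASP proteases, and C1q starts the classical pathway through C1r and C1s. Both lead to cleavage of C4, C2 and C3, while C1 inhibitor, CD55 and CD59 restrain the cascade at successive steps. The liver is the main source of circulating complement, most of it made by hepatocytes.

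The genes described here are 9 complement components and regulators, Masp1, Colec10, Colec11, C1ra, C4b, C3, Serping1, Cd55 and Cd59a, each found by its symbol in 1 row of the 24940 rows of the deposited count table. All 9 were among the 13357 genes with enough counts to be tested. The list was drawn up with the forskolin against vehicle results of these libraries known, so levels and fold changes of the 9 genes are a description and no p-value is given for them. Another 48 complement genes, listed from general knowledge of the mouse system and not by how they moved, are given with the test. That list, too, was written with earlier results of these data known.

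RNA with a poly(A) tail was sequenced from primary hepatic stellate cells, the liver pericytes that store vitamin A, of wild-type female mice of the strain C57BL/6JBomTac. The labels give no age. On day 2 after isolation the 3 forskolin libraries' cells received 5 µM forskolin, an activator of the enzyme that makes cyclic AMP, and the 3 vehicle libraries' cells received dimethyl sulfoxide. The medium was replaced after 3 h and RNA was collected 21 h later, at 24 h. Both groups are cells in culture after isolation, and the labels do not state whether libraries A, B and C came from separate mice or cultures, so the spread between libraries may be technical.

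Total counts ran from 10890193 to 12954310 in the forskolin libraries and from 13001358 to 15090262.5 in the vehicle libraries, so the vehicle libraries were deeper. Levels are in CPM, counts relative to the library size after scaling by TMM, a method that aligns libraries on genes that differ little. Of the 13357 genes, 49.9% passed edgeR's quasi-likelihood test at an adjusted p under 0.05 (24.8% higher and 25.1% lower with forskolin). All 15 stellate cell markers were detected, among them Lrat, Des and Reln, with a summed level of 5081 to 5310 CPM with vehicle and 5045 to 5199 CPM with forskolin. That sum hides movement within the list, of which 7 were called higher (Hgf, 198 to 401 CPM) and 6 lower (Tcf21, 106 to 27.2 CPM, and Des, 322 to 181 CPM). Of 15 hepatocyte markers 1, Apoa2, was high enough to be tested, the list summed to 4.94 to 5.94 CPM with vehicle and 5.10 to 5.67 CPM with forskolin, and the albumin gene Alb had 1 count over the 6 libraries. Fga, Fgb, Serpina1a and Serpina1b were listed at 0. Of 12 macrophage markers 3 were tested, with 2 higher (Csf1r and Cd68) and 1 lower (Lyz2). That list summed to 34.6 to 37.0 CPM with vehicle and 38.8 to 39.3 CPM with forskolin, Marco was at 0 and Ptprc, Adgre1 and Clec4f had 8.5, 7.5 and 1 counts over the 6 libraries. Sinusoidal endothelial markers summed to 38.3 to 41.6 CPM with vehicle and 39.1 to 40.6 CPM with forskolin, with 7 of 12 tested, 3 lower (Kdr, Lyve1 and Tek) and 1 higher (Stab2). The cholangiocyte list went from 137 to 151 CPM up to 392 to 427 CPM, carried by Spp1, while Krt19 fell from 71.2 to 35.0 CPM and Krt7 had 4.5 counts in all. The list of mesothelial and portal fibroblast markers went from 8.18 to 8.67 CPM up to 23.9 to 31.4 CPM, carried by Cd34 and Thy1, with Gpm6a at 0. The part of these other cell types in the values below was not tested. In bulk RNA, fewer cells of a type and less RNA per cell cannot be told apart.

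With forskolin the 9 genes showed 1 large rise, 1 marked fall and smaller differences in both directions. Cd55, a membrane regulator that was barely counted with vehicle, rose 52.9-fold, and Serping1, which encodes the C1 inhibitor, fell to 0.394 of its vehicle level. C4b rose 1.70-fold and Masp1, the member with the highest level, fell to 0.816 of its vehicle level. Of the 9 genes, 4 were called higher, 3 lower and 2 (C3 and Cd59a) neither, or 77.8% called beside 49.9% of all genes, a count that the choice of the genes had in view. The libraries of the groups did not overlap for 6 of the 9 genes, beside 57.3% of all genes, and 2 of the 9 were called with at least a 2-fold change, beside 6.62% of all genes. The median absolute log2 fold change was 0.42 for the 9 genes and 0.22 for all genes tested. These comparisons, too, are of genes chosen with the results known.

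**Figure D1:**
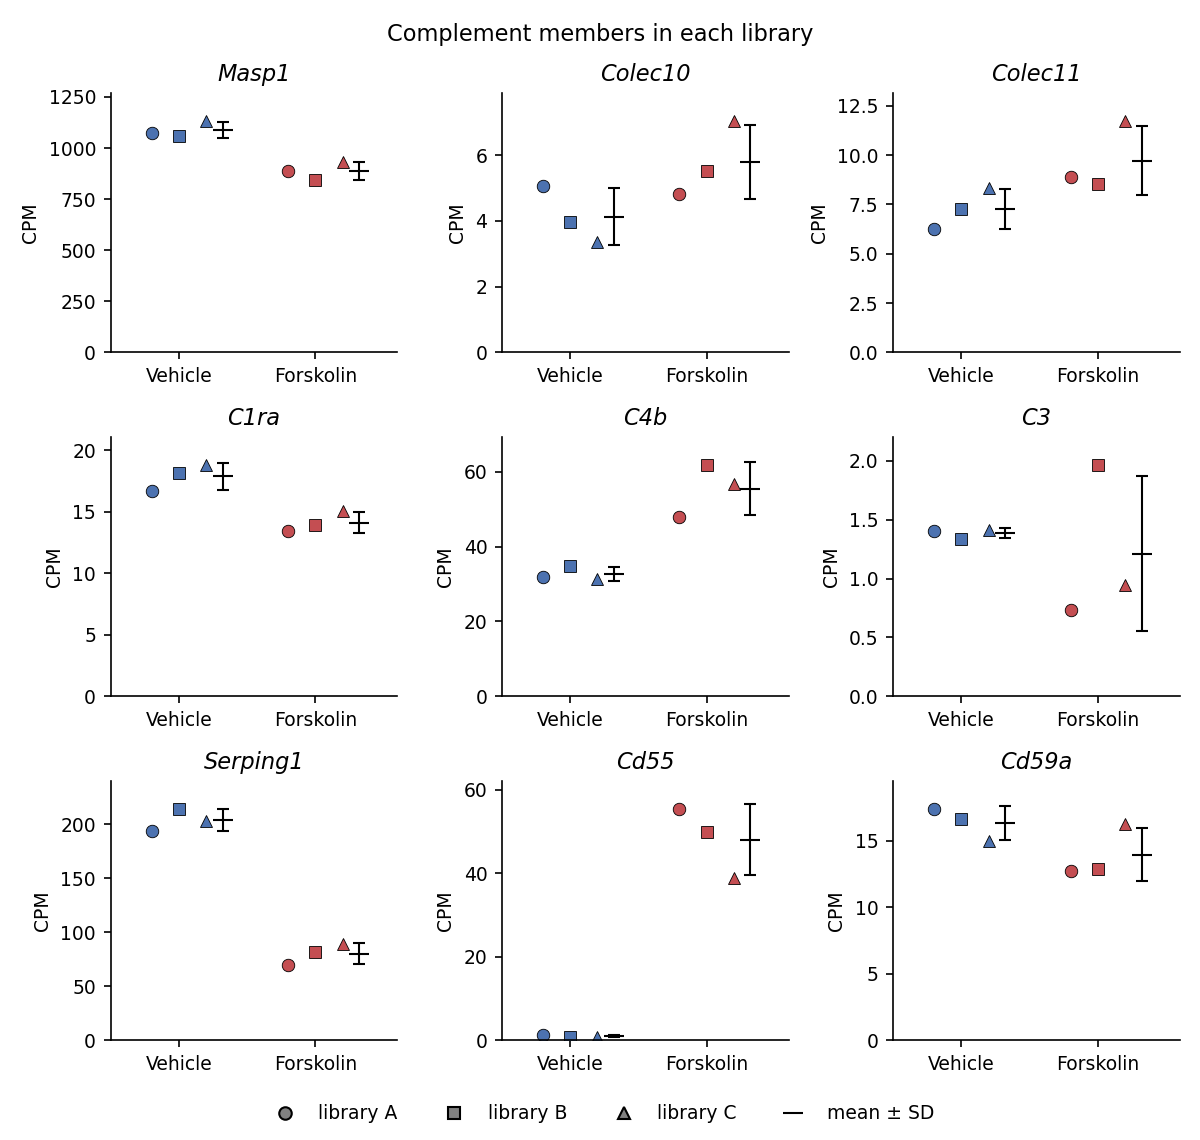
Level in CPM (linear axis from 0, own scale in each panel) of the 9 complement genes in each of 3 vehicle and 3 forskolin libraries, with the mean and SD beside the points. For Cd55 the vehicle libraries lie between 0.669 and 1.26 CPM and the forskolin libraries between 38.9 and 55.4 CPM, while for C3, Cd59a and Colec10 the groups overlap.

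Cd55 encodes decay-accelerating factor, a surface protein that takes apart the C3 and C5 convertases on the cell that carries it. Its row lies on chromosome 1 from 130439026 to 130462744 (mm10, minus strand). The start of the gene is shown because this is the member that differed most, with Cd59a, the other membrane regulator among the 9 genes, for comparison. Both stretches are the 250 bases before the start site, from RefSeq on GRCm38.p6 (the build mm10 is based on), 5′ to 3′ on the gene's strand. The capitals mark TGACG, the short form of the cyclic AMP response element.
Cd55 chr1:130462745-130462994 (minus strand): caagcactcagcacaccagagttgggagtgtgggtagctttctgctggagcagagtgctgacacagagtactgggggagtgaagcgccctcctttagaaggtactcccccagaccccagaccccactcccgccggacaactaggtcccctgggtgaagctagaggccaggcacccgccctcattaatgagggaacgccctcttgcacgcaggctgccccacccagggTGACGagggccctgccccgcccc
Cd59a chr2:104095551-104095800 (plus strand): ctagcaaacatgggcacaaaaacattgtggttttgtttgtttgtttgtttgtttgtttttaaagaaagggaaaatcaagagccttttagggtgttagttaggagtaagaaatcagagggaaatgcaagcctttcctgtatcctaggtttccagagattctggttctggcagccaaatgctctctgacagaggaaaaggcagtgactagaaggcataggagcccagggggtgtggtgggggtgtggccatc
A promoter was held by the RefSeq table for 5 of the 9 genes (Cd55, Cd59a, C1ra, Colec11 and C3), and in each the start site was that of the deposited row (difference 0 bases). TGACG, searched on both strands, was found once in the Cd55 window, from base -23 to base -19 before the start, and in none of the other 4 windows. The same window held it in 17.8% of the 32851 promoters listed. The full palindrome TGACGTCA, which contains TGACG, was in none of the 5 windows and in 1.55% of all promoters. The Cd55 window had 8 CG pairs and 64% G and C, and the Cd59a window 0 CG pairs and 44.8% G and C, against medians of 6 CG pairs and 52.4% over all promoters. Also searched on both strands were TTCNNNGAA and the interferon-stimulated response element core (GAAA, 2 bases of any kind, GAAA), which 7.02% and 2.98% of all promoters held. The Cd59a window held the interferon element core (from base -187 to -178), the Colec11 window held TTCNNNGAA (from -250 to -242) and the interferon element core (from -244 to -235, sharing bases with the former), and the Cd55, C1ra and C3 windows held neither. Matches of letters describe the windows and are not evidence of binding.

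Among the membrane regulators, the raw counts of Cd55 were 17, 12.5 and 8.5 in the vehicle libraries A, B and C, against 608.5, 661 and 473 in the forskolin libraries. On the scaled level these were 1.26, 0.837 and 0.669 CPM against 55.4, 49.9 and 38.9 CPM. Every forskolin library lay far above every vehicle library, and replicate C was the lowest of each group. The log2 fold change was 5.72 (SE 0.193), which has rank 8 from the highest among the 13357 genes. With 38 counts in the vehicle group the size of the fold is less certain than its direction. It ran from 5.55 without vehicle C to 6.03 without vehicle A. The row shares sequence with its tandem copy Cd55b, 16 kb away on the same chromosome. In the transcript set, 84.5% of the 50-base stretches of the Cd55 transcript occur in no other gene, 13.3% also occur in Cd55b and 2.17% in the antisense RNA gene Gm16083. Cd55b itself had 1 count over the 6 libraries.

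Cd59a encodes the surface protein CD59, which blocks the last step, insertion of the membrane attack complex. It was at 17.4, 16.7 and 14.96 CPM in vehicle A, B and C and at 12.7, 12.9 and 16.3 CPM in forskolin A, B and C. Forskolin C lay within the range of the vehicle libraries, so the groups overlap. The log2 fold change was -0.23 (SE 0.118), and -0.35 without forskolin C, the 1 of 14 other settings under which the gene was called. Its copy Cd59b had 30.5 counts over all libraries, too few to be tested.

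Of 6 other membrane regulator genes 2 were tested, and 1 was called. Cr1l, which encodes Crry, the widely expressed rodent inhibitor of C3 convertases, was at 74.1, 70.3 and 70.3 CPM with vehicle and 79.2, 79.6 and 80.2 CPM with forskolin. Its groups do not overlap, and the log2 fold change was 0.15 (SE 0.0508, edgeR adjusted p = 0.0173). The call was lost without vehicle B (adjusted p = 0.0683), without vehicle C (0.0704), with DESeq2 (0.0601) and with library size as a covariate (0.160). Cd46, a cofactor for cleavage of C3b, was at 0.893 ± 0.512 and 1.06 ± 0.213 CPM (SD, n = 3, edgeR adjusted p = 0.691). Its counts are uncertain, at 4 to 17.5 per library, and 14.2% of its exon bases overlap A330023F24Rik on the other strand.
Per kilobase of exon, the scale on which levels of different genes can be compared, Cd55 went from 0.365 to 19.1 CPM and Cr1l from 43.1 to 48.0 CPM. Cr1l was thus the membrane regulator with the highest level in both groups, and Cd55 passed Cd59a (8.79 and 7.52 CPM per kilobase) with forskolin.

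Serping1 encodes the C1 inhibitor, a serpin that inactivates C1r, C1s and the MASP proteases and also restrains plasma kallikrein. Its row lies on chromosome 2 from 84765360 to 84775429. It was at 194, 214 and 203 CPM in vehicle A, B and C and at 69.5, 81.3 and 89.2 CPM in forskolin A, B and C. The highest forskolin library was below 0.5 of the lowest vehicle library, and within each group the libraries lay close together. The log2 fold change was -1.35 (SE 0.066) and ran from -1.43 to -1.20 under the other settings. All of its 50-base stretches (100%) occur in no other gene.

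Among the other soluble regulators, 1 is described here. Clu, which encodes clusterin, an inhibitor of the membrane attack complex, was at 68.3 ± 0.662 and 71.3 ± 4.71 CPM (SD, n = 3, edgeR adjusted p = 0.381), and was not called. Vtn, the gene for vitronectin, was listed at 0 in every library.

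In the lectin pathway, Masp1 encodes the protease that cleaves MASP-2, and by alternative splicing also MASP-3 and the inhibitor MAp44, which a single row per gene does not tell apart. It was at 1073, 1061 and 1131 CPM in vehicle A, B and C and at 890, 842 and 931 CPM in forskolin A, B and C. The groups do not overlap, and the difference was small beside the level, a log2 fold change of -0.29 (SE 0.0458). Masp1 (chromosome 16, 23468361 to 23520815) took 56.8% to 58.7% of all counts of the 57 complement genes in the vehicle libraries and 52.1% to 54.4% in the forskolin libraries. Per kilobase of exon it was at 276 ± 9.56 CPM with vehicle (SD, n = 3), rank 60 of the 13357 tested genes, and at 225 ± 11.2 CPM with forskolin, rank 108.

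Colec10 and Colec11 encode collectins CL-L1 and CL-K1, which recognise sugars and carry the MASP proteases. Colec11 was at 6.27, 7.27 and 8.31 CPM in vehicle A, B and C and at 8.88, 8.54 and 11.7 CPM in forskolin A, B and C. The groups do not overlap, though vehicle C and forskolin B differ little. The log2 fold change was 0.42 (SE 0.158), and 0.26 without forskolin C. Colec10 was at 5.06, 3.95 and 3.35 CPM with vehicle and at 4.83, 5.52 and 7.03 CPM with forskolin. Here vehicle A lies above forskolin A, so the groups overlap. The log2 fold change was 0.50 (SE 0.20), and 0.34 without forskolin C.
Both collectin genes were called higher on few counts, 42.5 to 85.5 per library for Colec10 and 85 to 142.5 for Colec11. The call of Colec10 was lost under 7 of 14 other settings. These were DESeq2, library size as a covariate, a block for the replicate letter, and forskolin B or C or vehicle B or C left out. The call of Colec11 was lost under 5 of 14 (DESeq2, library size as a covariate, and forskolin C or vehicle A or B left out).

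Of the 5 other lectin pathway genes 2 were tested and neither was called. Fcna, which encodes ficolin A, a recognition molecule of the pathway, was at 46.8, 49.9 and 46.5 CPM with vehicle and 44.9, 50.8 and 51.0 CPM with forskolin (log2 fold change 0.04, SE 0.0668, edgeR adjusted p = 0.688). Its level per kilobase, 36.6 CPM with vehicle, was above that of both collectin genes (5.08 and 0.899 CPM). Masp2, the gene of the protease that cleaves C4 and C2, was at 9.35 ± 0.569 and 8.51 ± 2.57 CPM (SD, n = 3, edgeR adjusted p = 0.532), and 54.9% of its exon bases overlap Tardbp on the other strand, so its counts are uncertain. The mannose-binding lectin genes Mbl1 and Mbl2 and the ficolin gene Fcnb were listed at 0 in all libraries. A count of 0 in all 6 allows a level of up to 0.0386 CPM (3 counts of their total), for counting error only.

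C1ra encodes C1r, the first protease of the classical pathway. It was at 16.7, 18.2 and 18.8 CPM in vehicle A, B and C and at 13.4, 13.9 and 15.1 CPM in forskolin A, B and C. All forskolin libraries lay below all vehicle libraries, with a log2 fold change of -0.34 (SE 0.103). The call was lost under 2 of 14 other settings, library size as a covariate and vehicle C left out, the log2 fold change being -0.38 to -0.29 over all settings. Its counts are uncertain, as 49.2% of its 50-base stretches are found in no other gene and 48.0% also occur in C1rb, which had 3 counts over all libraries.
C1ra lies on chromosome 6 from 124512621 to 124523440, with C1rl 2 kb and C1s1 6.9 kb away. C1s1, the gene of the partner protease C1s, was at 6.46, 8.47 and 8.82 CPM with vehicle and 4.92, 6.50 and 6.37 CPM with forskolin, and 1 forskolin library lies above vehicle A. Its log2 fold change was -0.41 (SE 0.167, edgeR adjusted p = 0.0517), just outside the threshold, and 5 of the 14 other settings called it (adjusted p from 0.0252 to 0.523 over the 14). Of its stretches 60.5% are unique, 24.6% being shared with C1s2. C1rl, a C1r-like protease gene, was at 12.6 ± 1.29 and 12.2 ± 1.95 CPM (SD, n = 3, edgeR adjusted p = 0.815). C1qa, C1qb and C1qc, the genes of the recognition molecule C1q, together had 18 counts over the 6 libraries.

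C4b encodes C4, the protein cleaved by both C1s and MASP-2 to build the C3 convertase. It was at 31.9, 34.7 and 31.2 CPM in vehicle A, B and C and at 47.8, 61.8 and 56.7 CPM in forskolin A, B and C. Every forskolin library was higher than every vehicle library, with a log2 fold change of 0.77 (SE 0.0841) that was 1.03 with library size as a covariate. The row (chromosome 17, 34728381 to 34743897) has a near copy, C4a, 65.2 kb away. Of the C4b stretches 64.8% are unique and 35.2% also occur in C4a, whose own row was at 1.02 ± 0.303 and 0.957 ± 0.371 CPM (SD, n = 3, edgeR adjusted p = 0.807).

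C3 encodes the central protein on which all 3 pathways meet. It was at 1.40, 1.34 and 1.42 CPM in vehicle A, B and C and at 0.729, 1.96 and 0.945 CPM in forskolin A, B and C. The vehicle libraries nearly coincide, while forskolin B is above and forskolin A and C are below all of them. With 8 to 26 counts per library the log2 fold change was -0.14 (SE 0.353), and it was -0.68 without forskolin B, 0.11 without forskolin A and 0.44 with library size as a covariate. A difference in C3 was not detectable at this depth. All of its stretches (100%) are unique.

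Of the 5 other central genes 4 were tested and 1 was called. Cfb, which encodes factor B, the protease of the alternative pathway convertase, was at 4.54, 4.82 and 4.53 CPM with vehicle and 6.15, 6.16 and 7.11 CPM with forskolin. Its groups do not overlap, and the log2 fold change was 0.48 (SE 0.162, edgeR adjusted p = 0.0203). The call was lost without forskolin C (adjusted p = 0.0693), vehicle A (0.0586) or vehicle C (0.0578), with DESeq2 (0.0712) and with library size as a covariate (0.124). Of its stretches 19.9% are unique, because a read-through gene model, Gm20547, covers Cfb and C2 on the same strand. What this overlap does to the counts was not tested. C2, the gene of the protease of the classical and lectin convertase, was at 26.5 ± 0.655 and 23.2 ± 1.73 CPM (SD, n = 3, edgeR adjusted p = 0.0794). It was called without forskolin B (adjusted p = 0.042). Of the C2 stretches 42.0% are unique, 58.0% being shared with Gm20547. Cfp, the gene of properdin, which stabilises the alternative pathway convertase, was at 4.17 ± 0.734 and 3.78 ± 0.647 CPM (SD, n = 3, edgeR adjusted p = 0.578).

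**Figure D2:**
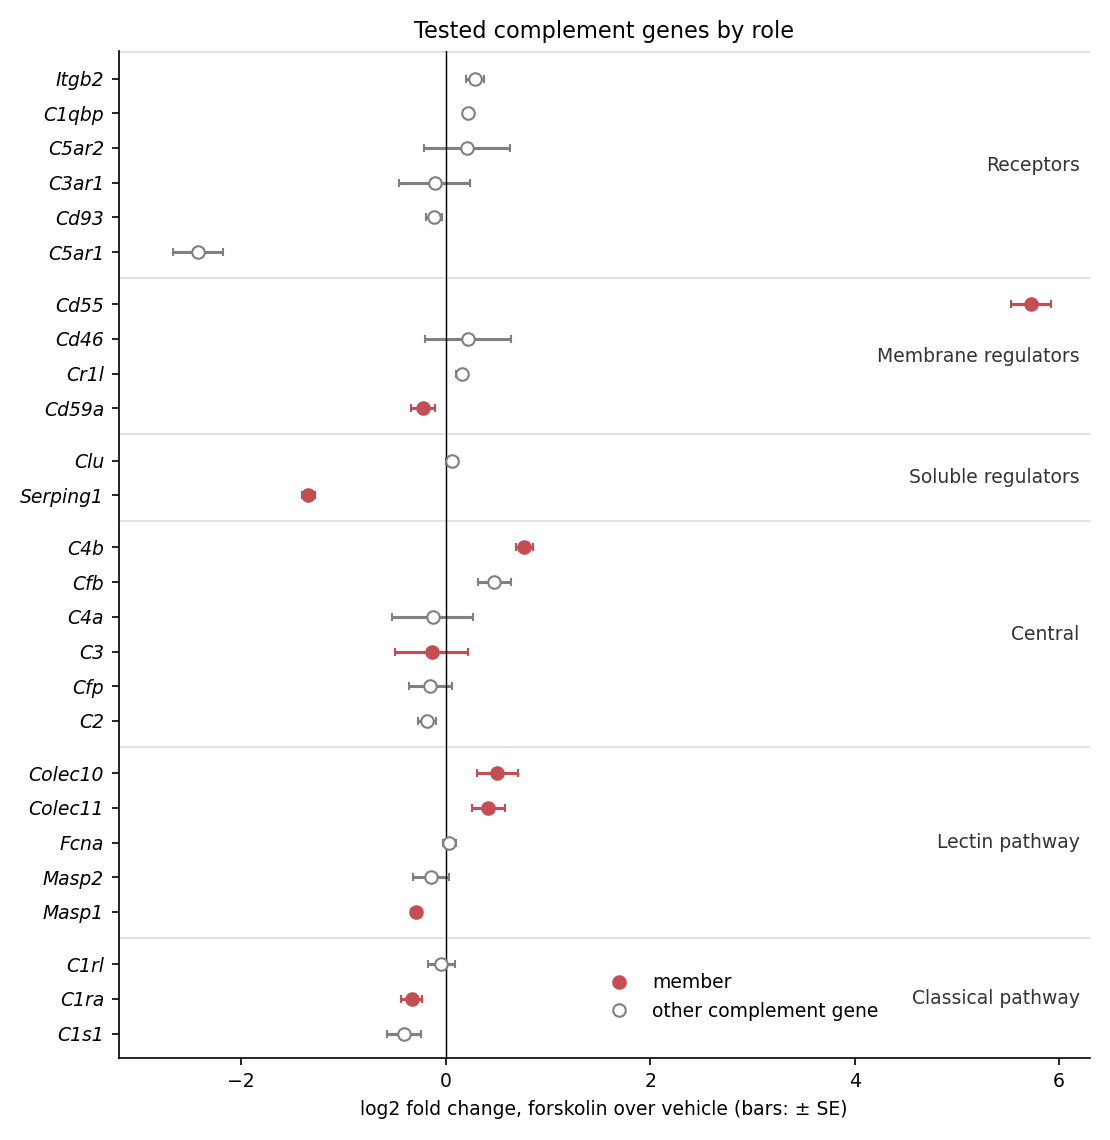
Log2 fold change of forskolin over vehicle with its SE (horizontal axis) for tested complement genes grouped by role, filled for the 9 genes described and open for others. Cd55 at 5.72 stands far to the right, C5ar1 at -2.42 and Serping1 at -1.35 to the left, and the other genes drawn lie between -0.41 and 0.77.

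Among receptors, which were not in the set of 9, C5ar1 fell most. It encodes the receptor for the fragment C5a, known chiefly from myeloid cells. It was at 6.57, 7.70 and 7.17 CPM in vehicle A, B and C and at 1.91, 0.756 and 1.40 CPM in forskolin A, B and C, with no overlap. The forskolin values rest on 21, 10 and 17 counts. The log2 fold change was -2.42 (SE 0.244, edgeR adjusted p = 1.7e-07), and it was called under all 14 other settings, from -2.74 to -2.12. Beside it, the macrophage marker Lyz2 went from 10.8 to 4.21 CPM while Csf1r and Cd68 went from 13.2 to 18.3 and from 11.2 to 15.8 CPM, and whether such cells contribute was not tested.
Itgb2, the shared beta chain of complement receptors 3 and 4, was at 23.5, 27.6 and 24.1 CPM with vehicle and 30.7, 32.7 and 28.6 CPM with forskolin (log2 fold change 0.29, SE 0.0869, edgeR adjusted p = 0.01). The call was lost without forskolin B (adjusted p = 0.0612) and without vehicle A (0.058). The alpha chains of these receptors, Itgam and Itgax, had 12.5 and 0.5 counts over the 6 libraries. C1qbp, which encodes a mitochondrial protein first found as a binder of C1q, was at 138, 127 and 133 CPM with vehicle and 156, 148 and 157 CPM with forskolin (log2 fold change 0.21, SE 0.0463, edgeR adjusted p = 0.000836). With library size as a covariate its call was lost (adjusted p = 0.112). Cd93 (35.3 ± 1.42 and 32.7 ± 2.28 CPM, SD, n = 3), C3ar1 and C5ar2 were not called.

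Of the 48 other complement genes, 18 were tested, of which 4 rose and 1 fell, 27.8% called beside 49.9% of all genes tested. These 18 are what remained after the 9 genes had been taken out with the results known, which bears on that share. Over the whole list of 57 genes, 12 of 27 tested were called, or 44.4%. For the 18 other tested genes alone, the median log2 fold change was -0.0033. Their median absolute log2 fold change was 0.15, against 0.22 for all genes. The 30 genes not tested had at most 34.5 counts over the 6 libraries, and they include all 7 genes of the terminal components (Hc, C6, C7, C8a, C8b, C8g and C9), which together had 56.5 counts.

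**Figure D3:**
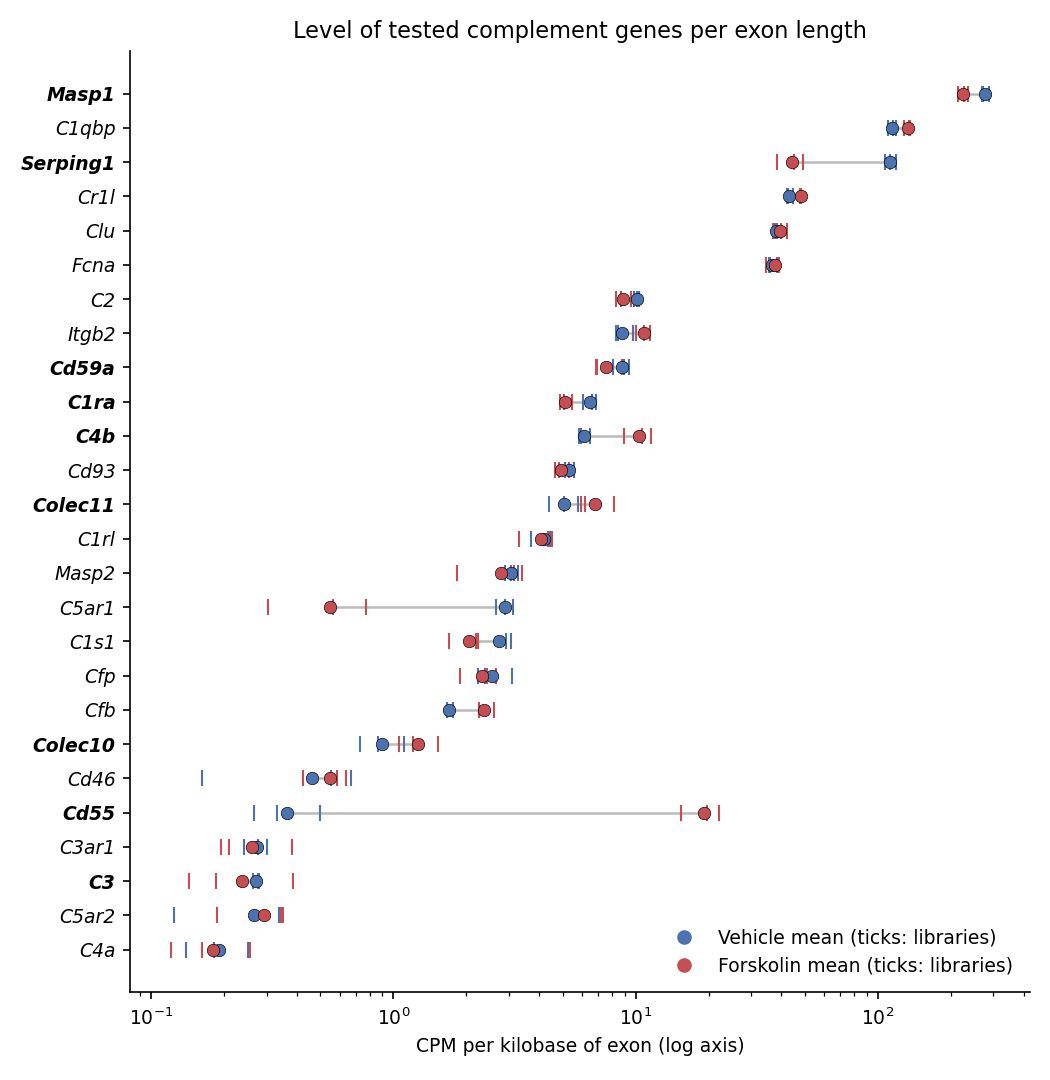
Level per kilobase of exon (CPM, log axis) of tested complement genes, ordered by the vehicle mean, with ticks for single libraries, circles for group means and the 9 described genes in bold. Masp1 leads in both groups at 276 and 225 CPM, and Cd55 moves from 0.365 to 19.1 CPM per kilobase.

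The order of the 9 genes by level per kilobase with vehicle was Masp1 (276 CPM), Serping1 (113 CPM), Cd59a (8.79 CPM), C1ra (6.50 CPM), C4b (6.09 CPM), Colec11 (5.08 CPM), Colec10 (0.899 CPM), Cd55 (0.365 CPM) and C3 (0.272 CPM). The libraries of C1ra and C4b overlap, as do those of Cd55 and C3, so the order within these pairs is not separated by the spread. With forskolin it was Masp1 (225 CPM), Serping1 (44.2 CPM), Cd55 (19.1 CPM), C4b (10.4 CPM), Cd59a (7.52 CPM), Colec11 (6.78 CPM), C1ra (5.13 CPM), Colec10 (1.26 CPM) and C3 (0.238 CPM). Cd59a and Colec11 overlap there. Masp1 and Serping1 kept the first and second places and C3 the last, and Cd55 moved from place 8 to place 3. The summed level of the 9 genes was 1347 to 1413 CPM with vehicle and 1078 to 1167 CPM with forskolin, a sum that follows Masp1. Without Masp1 it was 274 to 297 CPM and 213 to 236 CPM. Within that sum Serping1 fell most, from a mean of 204 to 80.0 CPM. Cd55 rose from 0.92 to 48.1 CPM and C4b from 32.6 to 55.45 CPM.

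Among genes with a mean of at least 5 CPM over the 6 libraries, the 3 whose centred log2 profile over the 6 libraries lay nearest to that of Cd55 were Il11 (distance 1.23, log2 fold change 6.41), Prune2 (distance 1.32, log2 fold change 5.43) and Crhbp (distance 1.43, log2 fold change 6.78). Their vehicle means were 3.94, 0.488 and 0.109 CPM, so all 3 passed that minimum through the forskolin libraries. Nearest to Serping1 were Slc24a3 (distance 0.0933, log2 fold change -1.29), Cish (0.145, log2 fold change -1.33) and Gdf6 (0.150, log2 fold change -1.29). Distances are Euclidean, in log2 CPM, and with 2 groups they mostly reflect the size of the fold change.

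**Figure D4:**
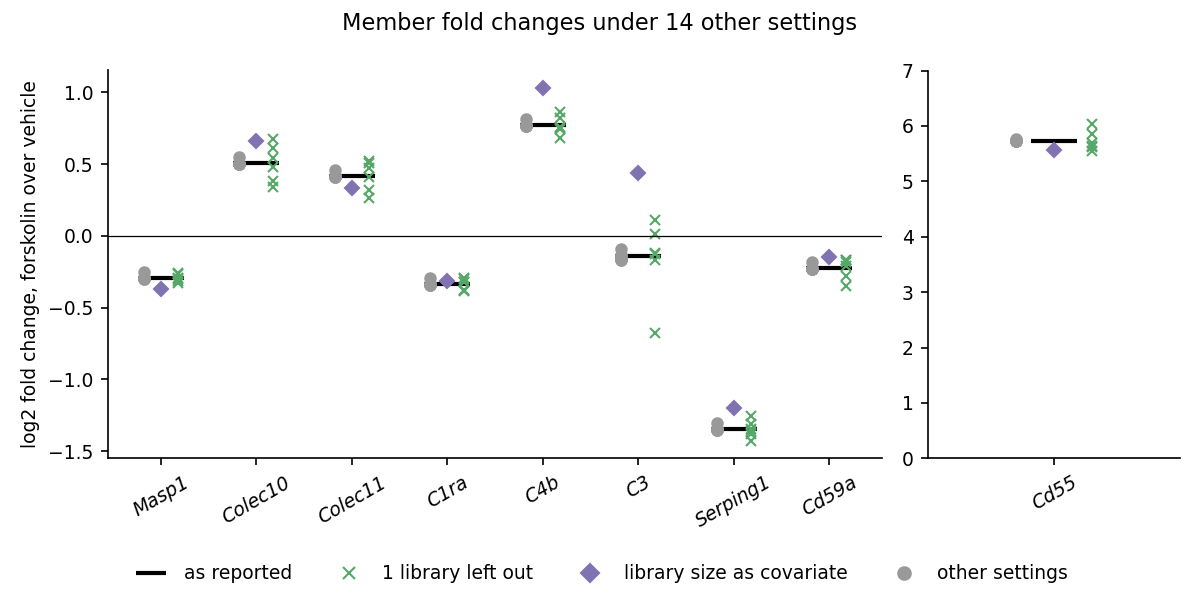
Log2 fold change of the 9 genes (vertical axis, with Cd55 on its own scale) as reported and under 14 other settings, marked as 1 library left out, library size as a covariate, or another setting. Only C3 crosses 0, from -0.68 to 0.44, and Cd55 stays between 5.55 and 6.03.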

How the data were processed

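The authors deposited 1 table of estimated counts per gene over exons, 1 RefSeq transcript per gene, not normalized. STAR, HOMER and the build mm10 are named in the submitters' processing notes, with versions and settings not given in the sources used here. Deposited values are multiples of 0.5 (31.8% not whole). How the 0.5 steps arose is not stated, and the deposited values were handled like expected counts and rounded for testing. CPM were computed here from the unrounded values, per kilobase with the deposited exon length. Low genes were removed with filterByExpr of edgeR 4.0.16 (R 4.3.3; count minimum 10, total minimum 15), libraries were scaled by TMM, and forskolin was compared with vehicle by the two-sided quasi-likelihood test without covariates. P-values were adjusted by Benjamini-Hochberg over all 13357 genes, with a threshold of 0.05. SE were derived from the F statistic. The test was tried on simulated counts with known fold changes. Alternatives included DESeq2 1.42.0, other scalings, filters and rounding, a replicate block, library size as a covariate, and each library left out.

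The members and lists were chosen with earlier results of these data known. The other complement genes were listed from general knowledge of the mouse system and not by how they moved. Named were the 9 genes, the tested genes of the list of 57 complement genes, their neighbours, and the 3 nearest profiles to the members with the highest and lowest fold change. Other names were chosen after values were seen. Unique stretches are 50-base windows compared with GENCODE M21 transcripts on both strands. Promoters are from RefSeq. No column of the table was left unmapped. Libraries of a group differed by more than sampling noise. The labels do not state strand, so sense and antisense reads cannot be told apart. The result of 1 tested complement gene is included in counts and is not reported or drawn here.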

Additional observations from a re-analysis of the deposited data

How the results depend on the processing

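The 14 alternatives kept the sign of 8 of the 9 genes described, C3 being the exception. Of 126 fold changes, 125 moved by less than the spread between libraries. That spread was the square root of the summed variances of log2 CPM within both groups. It is wide for C3, whose log2 fold change ran from -0.68 to 0.44 within it. Leaving out 1 of 3 libraries can hardly move a fold change beyond that spread, so the count of 125 says little about stability. Cd55, C4b, Masp1 and Serping1 were called under all 14. These genes were chosen with this contrast known, and all settings draw on the same 6 libraries, so the calls are a description. For the 18 other tested genes, 231 of 251 values stayed on their side of the threshold, 12 calls were lost, 8 were gained and 0 reversed. With library size as a covariate, 4297 genes were called in all (1998 higher), 2 other complement genes were called (1 higher), and C4b was at 1.03. Forskolin libraries were all shallower than vehicle libraries, so depth and treatment cannot be told apart. Library size alone, without TMM, moved the share of higher among all calls from 49.8% to 58.1% and called 6 other complement genes (5 higher). DESeq2 called 3 other complement genes (2 higher). Scaling by RLE factors, no low count filter and the replicate block each gave 2 lower calls among them. Leaving out single libraries gave 3 to 6 calls among them, 2 to 5 higher and 1 to 2 lower. The labels do not state whether the replicate letters pair the samples. Deviations of same-lettered libraries correlated only weakly across genes, at 0.0291, 0.0203 and 0.0377. Each library's own letter was still its best match in the other group, so these values do not settle the pairing. The replicate block called 6675 genes against 6668 and lost the call of Colec10. Counts under about 30 per library limit C3, Cd55 with vehicle, C5ar1 with forskolin, C4a, Cd46, C3ar1 and C5ar2.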
